A study of Mus musculus with 3 samples.

Results

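Stmn4, Trim35, Ptk2b and 6 neighbours lie on a stretch of 949.3 kb of mouse chromosome 14, and the levels of their transcripts were followed in RNA from isolated brain vessels of mice without Connexin 30 (Cx30) and of wild-type (WT) mice. The 9 genes were Scara3, Clu, Ephx2, Chrna2, Ptk2b, Trim35, Stmn4, Adra1a and Dpysl2, named in their order along the chromosome, out of 29917 genes with a named transcript in the files. They were listed by name around Stmn4 with the difference between Cx30-/- and WT vessels already known. The ratios below therefore describe the listed genes and carry no test.

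Each of the 3 libraries was poly(A)-selected RNA from the brain vessels of pooled 3-month-old mice. One came from C57BL6 WT mice, one from WT mice of a C57BL6-BALB/c background and one from Cx30-/- mice, in which Cx30 is deleted in every cell rather than in 1 cell type. For the Cx30-/- mice the sample label gives a C57BL6 background and the study's methods a mixed C57BL6 and BALB/c one, so the better matched WT library is not settled and both comparisons are given throughout. With 1 library per group there was no spread between replicates to set a difference against. The interval beside a ratio is an exact 95% interval of the 2 read counts and covers the sampling of reads only.

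Cx30, encoded by Gjb6, is a gap junction protein of the astrocytes whose endfeet wrap brain vessels. Its gene lies on the same chromosome as the 9 listed genes, with a start 9.22 Mb before that of Stmn4. The start of a gene here is the lower coordinate of its transcript, whatever its strand. Stmn4 belongs to the stathmins, which bind tubulin and favour the disassembly of microtubules, and Dpysl2 (CRMP2) binds tubulin and takes part in axon growth. Ptk2b (Pyk2) is a calcium-responsive tyrosine kinase of the focal adhesion kinase family, and Trim35 carries the RING and B-box domains of the TRIM family of ubiquitin ligases. Ephx2 is the soluble epoxide hydrolase, which turns vasodilating epoxides of arachidonic acid into diols. Chrna2 and Adra1a encode cell surface receptors, a subunit of nicotinic acetylcholine receptors and the alpha-1A adrenoceptor. Clu (clusterin) is a secreted chaperone and apolipoprotein made in quantity by astrocytes, and Scara3 is a class A scavenger receptor.

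The end of the coding sequence of Stmn4 is given because other stathmins were expressed in the same vessels, and because reads of 50 bases that matched more than once had been removed before counting. The transcript is the one whose row was used, ENSMUST00000121955, from GENCODE M21 (GRCm38), with 612 coding bases, or 203 codons before the stop. Bases 316 to 612 from the start codon are printed. The capitals mark the longest run of bases that the whole coding sequence shares exactly with the coding sequence of another stathmin, bases 442 to 459, shared with Stmn2.
Stmn4: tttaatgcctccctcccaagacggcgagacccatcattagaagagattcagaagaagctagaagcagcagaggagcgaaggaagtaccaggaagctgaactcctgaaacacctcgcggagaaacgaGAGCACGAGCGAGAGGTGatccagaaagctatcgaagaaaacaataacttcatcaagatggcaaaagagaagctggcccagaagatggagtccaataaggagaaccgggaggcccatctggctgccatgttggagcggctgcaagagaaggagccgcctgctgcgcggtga
This run was 18 bases long, and the longest runs shared with Stmn3 and Stmn1 were 17 and 14 bases. All were shorter than an untrimmed read of 50 bases. No stretch of 50 bases in the Stmn4 transcript occurred in a transcript of another gene, and the same held for 7 of the other 8 genes. The exception was Trim35, in which 50 of 3629 such stretches (1.4%) also belonged to 1700001G11Rik, a transcript of the opposite strand that overlaps the first bases of Trim35 by 99 bases. Those bases are a single place in the genome. Only exact stretches of 50 bases in annotated transcripts were compared. Copies elsewhere in the genome, reads shortened by trimming and alignments with mismatches were not tested.

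Stmn4 (ENSMUSG00000022044, chromosome 14: 66344374 to 66361674, plus strand, 8 exons) was more than 3-fold lower in the Cx30-/- library than in either WT library. Normalized counts of Stmn4 were 1635 in C57BL6 WT vessels, 1646 in C57BL6-BALB/c WT vessels and 508.8 in Cx30-/- vessels. The WT libraries lay close together and the Cx30-/- library far below them. The ratio of Cx30-/- to WT was -1.68 on the log2 scale (-1.83 to -1.54) against C57BL6 WT, and against C57BL6-BALB/c WT it was -1.69 (-1.84 to -1.55), which is 3.21-fold and 3.24-fold lower. Between the WT libraries the log2 ratio was 0.01 (-0.09 to 0.11), a difference within read sampling. Reads covered 98.6% and 99.9% of the transcript's bases in the WT libraries and 95.7% in the Cx30-/- library, so the remaining reads were spread over nearly the whole transcript.

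Trim35 (ENSMUSG00000022043, chromosome 14: 66297031 to 66311424, plus strand) is the expressed gene next to Stmn4, with a start at -47.3 kb from that of Stmn4. Its normalized counts were 4247 in C57BL6 WT, 4040 in C57BL6-BALB/c WT and 1770 in Cx30-/- vessels. Again the WT libraries were near each other and the Cx30-/- library was the low one. Trim35 was 2.4-fold lower than in C57BL6 WT (log2 ratio -1.26, -1.34 to -1.18) and 2.28-fold lower than in C57BL6-BALB/c WT (-1.19, -1.27 to -1.11), against a log2 ratio of -0.07 between the WT libraries. The library preparation did not keep the strand, so reads on the 99 shared bases could belong to either gene. The overlapping 1700001G11Rik held only 38, 21 and 14 reads in the 3 libraries, where Trim35 held 4864, 3740 and 1687.

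Ptk2b (ENSMUSG00000059456), on the minus strand with the start of its most counted transcript 191.1 kb before that of Stmn4, was also lowest in the Cx30-/- library, but its WT levels were not alike. The transcript had 3190 normalized counts in C57BL6 WT vessels, 6515 in C57BL6-BALB/c WT and 1172 in Cx30-/- vessels. The ratio therefore depended on the WT library chosen, with Ptk2b 2.72-fold lower against C57BL6 WT (log2 ratio -1.44, -1.54 to -1.35) and 5.56-fold lower against C57BL6-BALB/c WT (-2.48, -2.57 to -2.38). Between the WT libraries Ptk2b was 2.04-fold higher in the C57BL6-BALB/c one (log2 ratio 1.03, 0.97 to 1.09). Ptk2b was the only one of the 9 genes past 2-fold between the WT libraries. The row used is annotated as a retained-intron transcript (chromosome 14: 66153267 to 66160678). The longest row, a coding transcript of 4034 bases, gave 2982, 5291 and 1086 normalized counts, in the same order.

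Ptk2b, Trim35 and Stmn4 were the members called lower in both comparisons, that is with at least 50 normalized counts in 1 of the libraries compared and a difference of at least 2-fold in the same direction. They were 3 of the 8 members past that count minimum, and 0 members were called higher. They were past 2-fold in both with counts scaled to the whole library, and the same count relative to neuron markers, which were also lower in the Cx30-/- library, is given with those markers. Over all genes, 0.674% were called lower in both comparisons and 0.742% higher. Against C57BL6 WT alone 4 members were called lower and 0 higher, where 1.25% and 1.42% of all genes were. Against C57BL6-BALB/c WT alone 3 were called lower and 0 higher, where 4.73% and 3.96% of all genes were. In the comparison of the WT libraries 1 member, Ptk2b, was called higher in C57BL6-BALB/c WT and 0 lower, where 1.41% and 2.02% of all genes were. Since the listed genes were known to differ, these shares stand as background only. Both comparisons use the same Cx30-/- library, so they are not independent of each other. The log2 ratio of the median gene was 0.0 in each comparison.

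**Figure D1:**
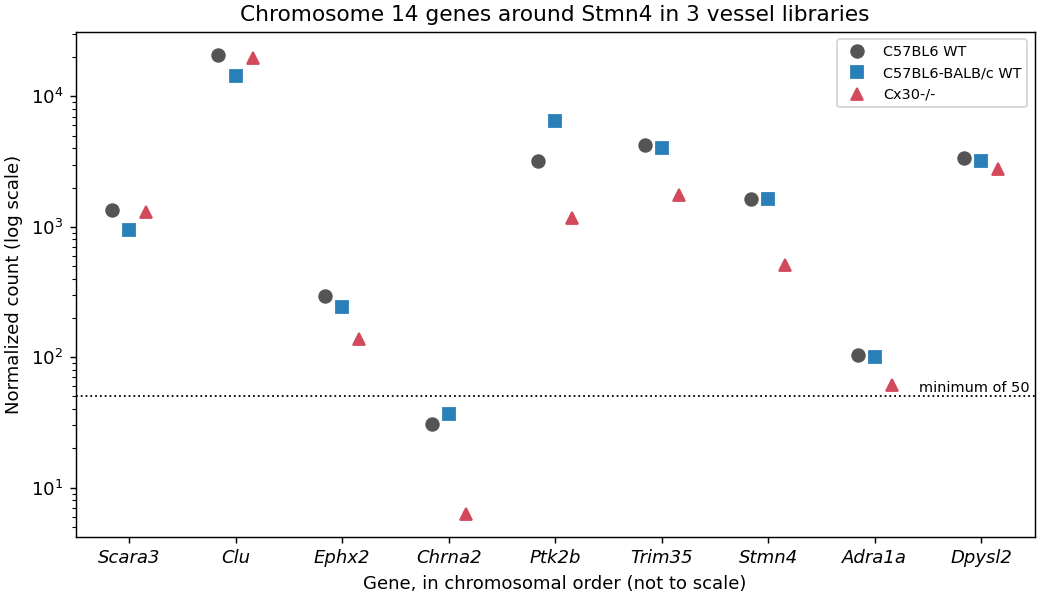
Normalized counts (log scale) of the 9 listed genes in each of the 3 libraries, in chromosomal order and not to scale, with 1 point per library and the count minimum of 50 as a dotted line. The Cx30-/- triangles are the lowest points from Ephx2 to Dpysl2, and for Scara3 and Clu they lie between the WT points.

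The members that were not called in both comparisons fell into a group that shared the direction and a group that did not. Ephx2 (ENSMUSG00000022040, chromosome 14: 66084377 to 66124500, minus strand) had 295.1 normalized counts in C57BL6 WT vessels, 243.0 in C57BL6-BALB/c WT and 137.4 in Cx30-/- vessels. It passed 2-fold against C57BL6 WT (2.15-fold lower, log2 ratio -1.10, -1.41 to -0.81) and stayed inside it against C57BL6-BALB/c WT (1.77-fold lower, -0.82, -1.14 to -0.51). Both intervals included a 2-fold difference. Ephx2 was the member just outside the call, and Trim35 the one just inside it.

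Chrna2 (ENSMUSG00000022041, chromosome 14: 66140933 to 66152948, plus strand) was barely detected, with 35, 34 and 6 reads before normalization and 30.6, 36.7 and 6.3 normalized counts. It never reached the minimum of 50 and was not part of the counts of called genes. The reads gave log2 ratios of -2.28 (-3.82 to -1.01) and -2.54 (-4.09 to -1.28), the widest intervals of the set. Reads reached 37.1% and 37.8% of the bases of this receptor subunit's transcript in the WT libraries and 7.3% in the Cx30-/- library. At this depth the size of the difference cannot be given to better than a range of several fold.

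Adra1a (ENSMUSG00000045875, chromosome 14: 66635258 to 66733329, plus strand), on the far side of Stmn4 with a start 290.9 kb after it, had 104.8, 100.5 and 60.8 normalized counts in C57BL6 WT vessels, C57BL6-BALB/c WT and Cx30-/- vessels. This adrenoceptor was 1.72-fold and 1.65-fold lower in the Cx30-/- library (log2 ratios -0.78, -1.26 to -0.32, and -0.72, -1.22 to -0.23). Dpysl2 (ENSMUSG00000022048, chromosome 14: 66802864 to 66868688, minus strand) is the next expressed gene on that side and had 3392, 3190 and 2798 normalized counts. The Dpysl2 difference was 1.21-fold and 1.14-fold, with narrow intervals (log2 ratios -0.28, -0.35 to -0.21, and -0.19, -0.27 to -0.11). Both genes were lowest in the Cx30-/- library, at sizes under the call.

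On the other side, Clu and Scara3 were not lower than in both WT libraries. Clu (ENSMUSG00000022037, chromosome 14: 65968483 to 65981547, plus strand), the most abundant of the 9 genes, had 20716 normalized counts in C57BL6 WT vessels, 14231 in C57BL6-BALB/c WT and 19539 in Cx30-/- vessels. The Cx30-/- level lay between the WT levels, with a log2 ratio of -0.08 (-0.11 to -0.06) to the former library and of 0.46 (0.43 to 0.49) to the latter. Scara3 (ENSMUSG00000034463, chromosome 14: 65919394 to 65953935, minus strand) followed the same order, with 1354, 947.3 and 1309 normalized counts. Its log2 ratios were -0.05 (-0.16 to 0.06) and 0.47 (0.34 to 0.59). For both genes the library that stood apart was C57BL6-BALB/c WT, at log2 ratios of -0.54 and -0.52 to C57BL6 WT.

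Per kilobase of transcript, which allows levels to be set side by side between genes, Clu was far above the rest at 11439, 7858 and 10789 normalized counts per kb in C57BL6 WT, C57BL6-BALB/c WT and Cx30-/- vessels. Stmn4 came to 1201, 1210 and 373.8 per kb and Trim35 to 1155, 1098 and 481.2. In the WT libraries Stmn4 thus stood slightly above Trim35, and in the Cx30-/- library below it. Ptk2b reached 917.1, 1873 and 336.9, and Scara3 397.7, 278.2 and 384.5. The Ptk2b values are those of its retained-intron row of 3478 bases. Its place beside the other genes holds for that row only, since levels per kb were not computed for its coding rows. Dpysl2 had 750.5, 705.7 and 619.0 per kb, so that its transcript was less abundant than that of Stmn4 in both WT libraries and more abundant in the Cx30-/- one. Ephx2, Adra1a and Chrna2 were the scarce members, at no more than 145.0, 25.3 and 10.4 per kb in any library.

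Ordered by the log2 ratio to C57BL6 WT, the genes ran from Chrna2, the lowest, through Stmn4, Ptk2b, Trim35, Ephx2, Adra1a, Dpysl2 and Clu to Scara3. The intervals of neighbours in this order overlapped except between Ptk2b and Trim35 and between Dpysl2 and Clu. Against C57BL6-BALB/c WT, Ptk2b moved ahead of Stmn4 and Clu stood before Scara3. Here the neighbours that did not overlap were Ptk2b and Stmn4, Stmn4 and Trim35, and Dpysl2 and Clu. The place of Chrna2 at the low end is not fixed by its few reads in either order.

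**Figure D2:**
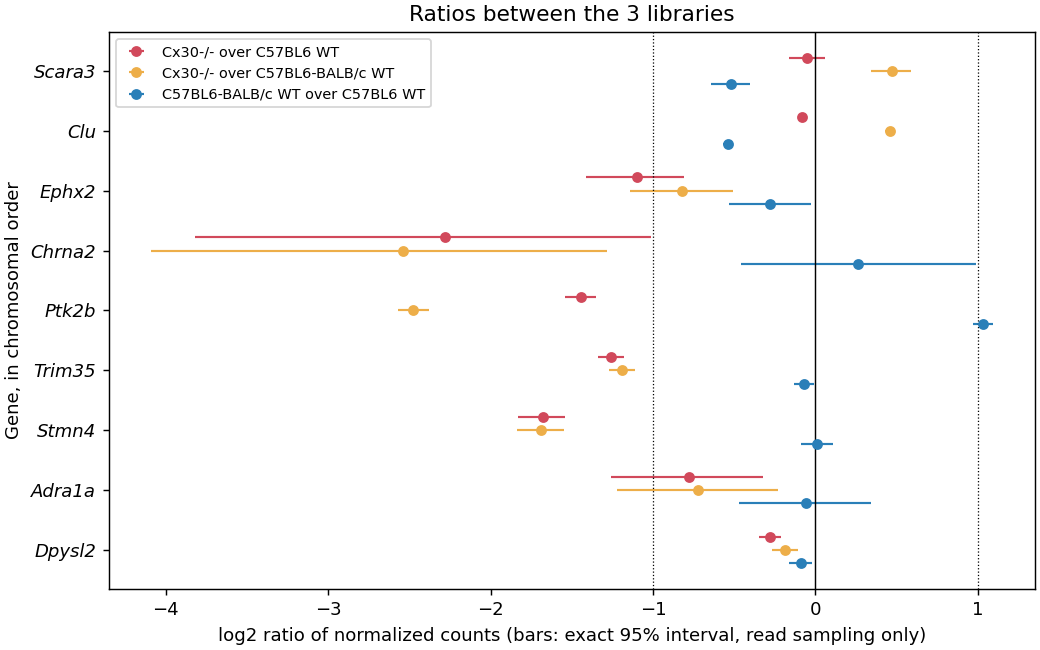
Log2 ratios of normalized counts for the 9 listed genes in the 3 comparisons of libraries, in chromosomal order from top to bottom, with exact 95% intervals for read sampling only and dotted lines at 2-fold. Stmn4 and Trim35 lie past the line at -1 in both Cx30-/- comparisons and near 0 between the WT libraries, while Ptk2b lies past 2-fold in all 3.

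The transcript rows of a gene show whether a difference belonged to 1 isoform. Transcripts with a common exon each received its reads, so the rows of a gene are not independent. All 9 rows of Stmn4 were at least 2-fold lower in both comparisons, with log2 ratios of -2.04 to -1.68 in the comparison with C57BL6 WT and of -1.87 to -1.47 in that with C57BL6-BALB/c WT. All 7 rows of Ptk2b did the same, at -1.87 to -1.41 and -2.78 to -2.21. Each Ptk2b row was also higher in C57BL6-BALB/c WT than in C57BL6 WT, by 0.81 to 1.04 on the log2 scale, so the gap between the WT libraries was not limited to the retained-intron row. Of the 2 rows of Trim35, the shorter one, of 1296 bases, was just under 2-fold against C57BL6 WT (log2 ratio -0.97, -1.22 to -0.72) and past it against C57BL6-BALB/c WT (-1.28). The 9 rows of Clu stayed together near no difference from C57BL6 WT, at -0.10 to 0.12, and above C57BL6-BALB/c WT at 0.29 to 0.46.

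**Figure D3:**
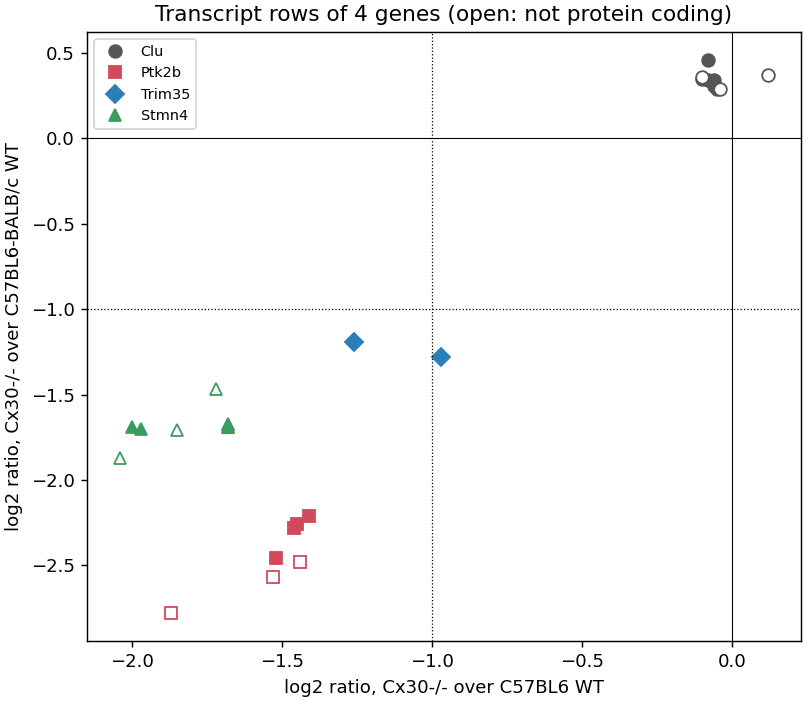
Each transcript row of Clu, Ptk2b, Trim35 and Stmn4 by its log2 ratio of Cx30-/- to C57BL6 WT (horizontal) and to C57BL6-BALB/c WT (vertical), with open symbols for rows not annotated as protein coding and dotted lines at 2-fold lower. The 9 Stmn4 rows and the 7 Ptk2b rows lie past both dotted lines, 1 of 2 Trim35 rows does, and the 9 Clu rows do not.

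By position, and with counts scaled to the whole library, the members lower in the Cx30-/- library formed a single uninterrupted stretch. The genes had been listed around Stmn4 with their ratios known. From Ephx2 to Stmn4, over 277.3 kb, each of the 5 listed genes was at least 1.77-fold lower in the Cx30-/- library in both comparisons, Chrna2 on few reads. The overlapping 1700001G11Rik, also under the count minimum, had 33.2, 22.7 and 14.7 normalized counts. Between Clu and Ephx2 lie Gulo, with 4, 3 and 4 reads, Adam2, with 3, 0 and 0, and Gm10233, with 0 in each, so the edge of the stretch on that side could be placed no more closely than between Clu and Ephx2. On the other side the ratios of the listed genes came back towards 1 through Adra1a and Dpysl2. The next expressed gene there, Pnma2, was again lower in both comparisons (log2 ratios -0.59 and -2.78). Lowering of about the size seen for Adra1a was not confined to this stretch. Nefl, with a start at 1739.5 kb from that of Stmn4, had log2 ratios of -0.67 and -0.76. Pnoc, at -943.7 kb, had -0.56 and -0.74. Of the 18 genes within 2 Mb that were not listed and passed the minimum, 5 were lower and 10 higher in both. Relative to neuron markers the stretch was broken, though Chrna2, Ptk2b, Trim35 and Stmn4 stayed lowest in the Cx30-/- library. On that scale the ratio of C57BL6-BALB/c WT to Cx30-/- was 0.981 for Ephx2 and 0.916 for Adra1a. Dpysl2 was highest in Cx30-/- vessels.

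The 2 Mb on either side of Stmn4 held 44 genes, of which 26 passed the count minimum in both comparisons. The 3 called lower in both were Ptk2b, Trim35 and Stmn4, and 0 were called higher. Without the members, 18 genes passed the minimum, 0 were called in both comparisons, and 5 were lower and 10 higher in both at any size. Of all 14688 genes past the minimum, 5375 were lower and 5452 higher in both at any size. Only 0.674% were called lower in both and 0.742% higher, so 0 called among 18 is the usual outcome. When all rows of a gene were summed, 1 further gene of the segment was called lower in both, 1700001G11Rik, which overlaps Trim35 (68.3, 54.9 and 25.2 normalized counts). The median log2 ratios of the 18 other genes were 0.05 against C57BL6 WT and 0.19 against C57BL6-BALB/c WT. Those of the 8 members past the minimum were -0.94 and -0.77. The members had been listed with their ratios known, so this gap was built into the choice and is a description only. The 3 most counted of the other genes were Extl3, a heparan sulphate glycosyltransferase, Bnip3l, a mitophagy receptor, and Kif13b, a kinesin. Their log2 ratios were 0.09, 0.06 and -0.10 against C57BL6 WT, and 0.43, 0.61 and -0.78 against C57BL6-BALB/c WT. They were thus near the level of the C57BL6 WT library only, and in the other comparison Kif13b was about as low as Ephx2 and Adra1a.

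Pnma2, a gene expressed in neurons and named here after its values were seen, is the next expressed gene after Dpysl2, and it varied most between the WT libraries. It had 390.3 normalized counts in C57BL6 WT vessels, 1775 in C57BL6-BALB/c WT and 259.1 in Cx30-/- vessels. As for Ptk2b, the C57BL6-BALB/c WT library was the high one, and the Cx30-/- level was nearer to C57BL6 WT (log2 ratio -0.59, -0.82 to -0.36) than to C57BL6-BALB/c WT (-2.78).

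**Figure D4:**
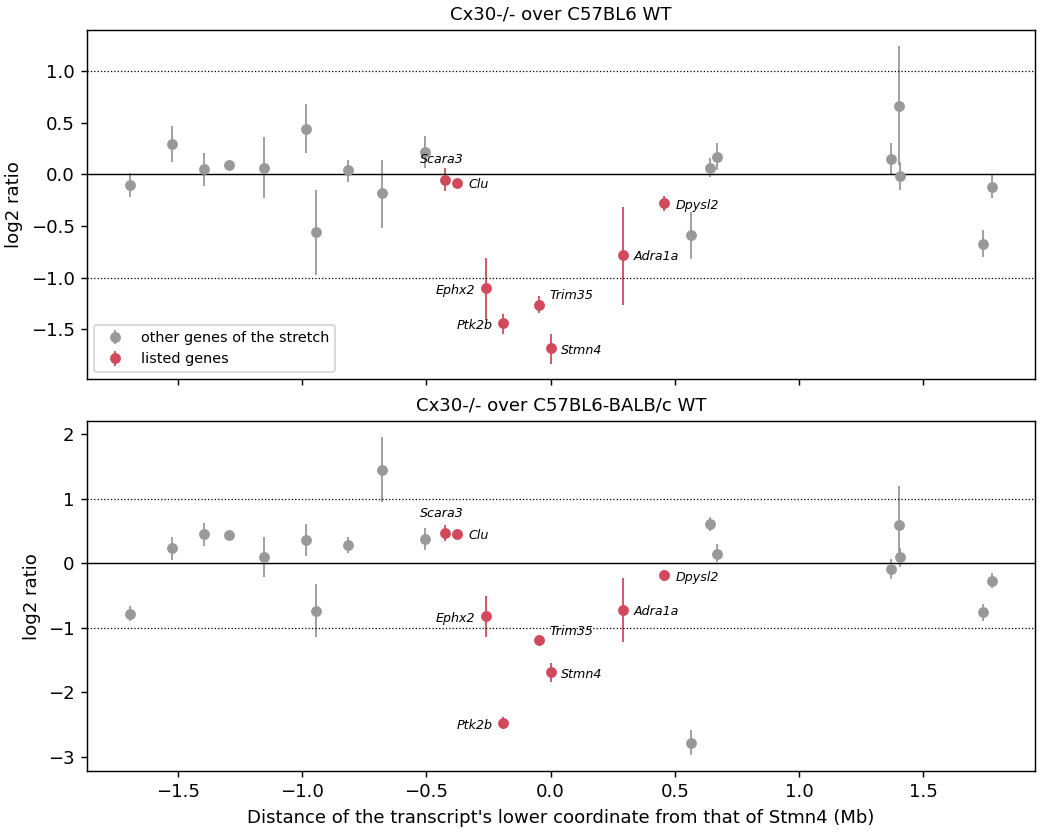
Log2 ratio of every gene past the count minimum within 2 Mb of Stmn4, by the distance of its lower coordinate from that of Stmn4 in Mb, with exact 95% intervals for read sampling only, the listed genes in red and dotted lines at 2-fold. The red points from Ephx2 to Dpysl2 lie below 0 in both panels, with Scara3 and Clu at -0.05 and -0.08 in the upper panel. Of the 18 grey genes 10 are higher and 5 lower in both panels. Of all 14688 genes past the minimum, 5452 were higher and 5375 lower in both comparisons.

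Along the whole genome, neighbouring genes past the count minimum were read in order of position. Only 1 run of 3 or more neighbours was at least 2-fold lower in both comparisons, and it was Ptk2b, Trim35 and Stmn4, with 191.1 kb between the first and the last start. These genes had been listed with the same ratios known, so the run describes them and tests nothing. Scaled to neuron markers, 0 members were called lower in both comparisons, so the run depends on scaling to the whole library. Runs that were lower in both at any size were common, since 36.6% of all genes past the minimum were. The run with the members held 7 genes, from Ephx2 to Pnma2, and 10 runs in the genome had that length while 13 were longer.

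Isolated vessels carry other cells along, and the marker genes of each cell type were measured beside the listed genes. Summed markers of endothelial cells were 149264, 94346 and 181577 normalized counts in C57BL6 WT vessels, C57BL6-BALB/c WT and Cx30-/- vessels, and those of mural cells 75529, 75647 and 91918, so the labelled tissue had its defining markers. The 10 neuron markers summed to 70888, 89635 and 49713, and 10 of 10 were lower in the Cx30-/- library in both comparisons, with medians of -0.45 and -0.84 on the log2 scale and 0 called in both. The 8 oligodendrocyte markers summed to 53990, 47786 and 42423 (medians -0.52 and -0.51), and the 8 astrocyte markers to 45282, 44170 and 37188 (medians -0.24 and -0.14). None of these markers was at 0 in any library. In bulk RNA, fewer cells of a type and less RNA per cell cannot be told apart, and the part of neuronal or oligodendrocyte RNA in the levels of Stmn4 and Ptk2b was not tested.

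Set against the neuron markers, Stmn4 had 23.1 normalized counts per 1000 summed marker counts in C57BL6 WT, 18.4 in C57BL6-BALB/c WT and 10.2 in Cx30-/- vessels. Ptk2b had 45.0, 72.7 and 23.6, and Trim35 had 59.9, 45.1 and 35.6. All 3 genes were still lowest in the Cx30-/- library, but none was 2-fold lower in both comparisons on this scale. Stmn4 was 2.25-fold and 1.79-fold lower than in C57BL6 WT and C57BL6-BALB/c WT, Ptk2b 1.91-fold and 3.08-fold, and Trim35 1.68-fold and 1.27-fold, so that the number of members called lower in both went from 3 to 0. Per 1000 oligodendrocyte marker counts Stmn4 had 30.3, 34.4 and 12, Ptk2b 59.1, 136 and 27.6, and Trim35 78.7, 84.5 and 41.7. On that scale 2 members, Stmn4 and Ptk2b, stayed at least 2-fold lower in both comparisons, and Trim35 was 1.89-fold and 2.03-fold lower. Mbp made the largest part of the oligodendrocyte sum, with 29719, 23986 and 25181 normalized counts. Its log2 ratios of -0.24 and 0.07 were above the list's medians of -0.52 and -0.51, so this scale leaned on 1 abundant marker. Scaling to the median marker was not tested. Ephx2 and Adra1a were not lowest in the Cx30-/- library by the neuron markers, where Ephx2 had 4.16, 2.71 and 2.76 and Adra1a 1.48, 1.12 and 1.22. Chrna2, at 0.432, 0.409 and 0.127, was lowest there. Dpysl2 was higher in the Cx30-/- library on this scale, at 47.9, 35.6 and 56.3. Per 1000 astrocyte marker counts, Ephx2 had 6.52, 5.5 and 3.69 and Clu 457, 322 and 525, so Ephx2 was lowest and Clu highest in Cx30-/- vessels. On the same scale Stmn4 had 36.1, 37.3 and 13.7, Ptk2b 70.4, 148 and 31.5, and Trim35 93.8, 91.5 and 47.6. There Stmn4 and Ptk2b were at least 2-fold lower in both comparisons, and Trim35 was just under 2-fold in each.

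The markers of other cells moved differently from the listed genes. The 6 choroid plexus markers summed to 146341, 56975 and 77006 and were highest in C57BL6 WT, as Clu and Scara3 were, although the Cx30-/- level of Clu and Scara3 was close to that of C57BL6 WT and that of the choroid plexus markers was not. Neutrophil markers, at 530.0, 501.2 and 1556, and erythroid markers, at 2061, 1008 and 4763, were highest in the Cx30-/- library. Fibroblast markers were 9400, 7978 and 11031, and microglia markers 7180, 5068 and 6046. The part of any of these cells in the members' levels was not tested.

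Relatives of the listed genes elsewhere in the genome were examined family by family. Over all genes, 0.674% were called lower and 0.742% higher in both comparisons, and 4.73% lower against C57BL6-BALB/c WT alone. At those shares 0 genes called in both is the usual outcome for lists of this size, and the counts below do not set the members apart. Among the other stathmins, 0 of 3 were called in either direction in both comparisons. Stmn2, a neuronal stathmin of growing axons, had 2138, 2037 and 2267 normalized counts and was level across the libraries (log2 ratios 0.08 and 0.15 of Cx30-/- to each WT). Stmn3, also neuronal, had 2253, 2049 and 1454 (-0.63 and -0.49), and Stmn1 had 89.1, 140.4 and 79.7 (-0.16 and -0.82). Stmn4 was thus the lowest of the 4 stathmins in both comparisons, and Stmn2, with the longest shared run, was not lower. Of the other 4 collapsin response mediators, the family of Dpysl2, 0 were called in both comparisons and 2, Dpysl4 and Dpysl5, were called lower against C57BL6-BALB/c WT only, at -1.11 and -1.01.

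Ptk2, the focal adhesion kinase and closest relative of Ptk2b, had 3833, 4435 and 3057 normalized counts (log2 ratios -0.33 and -0.54). Of 10 measured kinases and partners of that family besides Ptk2b, 0 were called in both comparisons, and their medians were 0.12 and -0.06. Among the 42 other TRIM genes past the count minimum 0 were called in both, with medians of 0.08 and 0.25. Trim35 was the lowest of the family against C57BL6 WT, ahead of Trim59 at -0.53. Against C57BL6-BALB/c WT it was not, with Trim9 at -1.24 and Trim35 at -1.19, and Trim9 and Trim2 (-1.09) were also called lower there.

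The receptors differed more. Of the 5 other nicotinic acetylcholine receptor subunits past the minimum in both comparisons, 1 was called lower in both, Chrna7, with 140.6, 177.1 and 68.2 normalized counts (log2 ratios -1.04 and -1.38). Chrna7 encodes the subunit of the homomeric alpha-7 receptor. Chrnb2, which pairs with alpha subunits such as Chrna2, had 1257, 1310 and 676.6 (-0.89 and -0.95). The median of the 5 subunits past the minimum against C57BL6 WT was -0.85, and that of the 7 past it against C57BL6-BALB/c WT was -0.82. Of the 7 other adrenoceptors past the minimum 0 were called in both. Adra1d, a second alpha-1 receptor, had 137.1, 158.8 and 70.3 (-0.96 and -1.18), and Adra1b had 196.5, 194.4 and 152.1 (-0.37 and -0.35).

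For Ephx2, Clu and Scara3 the relatives held 0 genes called in both comparisons. The microsomal epoxide hydrolase Ephx1 had 2923, 2454 and 3345 normalized counts and was higher in the Cx30-/- library (log2 ratios 0.19 and 0.45), opposite to Ephx2. The median of the 6 other epoxide hydrolases and epoxide-forming enzymes past the minimum was -0.06 and 0.25. The 10 lipoproteins and receptors listed with Clu had medians of -0.11 and 0.42, close to the ratios of Clu itself. Colec12 and Scara5 were the other class A scavenger receptors past the minimum, and like Scara3 both were higher in Cx30-/- than in C57BL6-BALB/c WT vessels (0.34 and 1.44).

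The genes whose pair of Cx30-/- to WT log2 ratios lay nearest to that of Stmn4, among 9154 genes with at least 500 normalized counts in some library, were Lrfn2, Mas1, Myt1l, Nell2 and Scg2, at distances of 0.363 to 0.566. The nearest, Lrfn2, a synaptic adhesion protein, had 358.0, 501.2 and 140.6 normalized counts (log2 ratios -1.35 and -1.83). For Ptk2b they were Add2, Lrfn2, Kcnv1, Scg2 and Gabrb2, at 0.647 to 0.759. Add2, a membrane skeleton protein, had 714.3, 1264 and 332.5 normalized counts (-1.10 and -1.93). Except for Gabrb2 (-0.94 and -1.91), these genes were themselves at least 2-fold lower in both comparisons. Stmn4 and Ptk2b had been listed with their low ratios known, so nearest genes less low than they were could be foreseen. All these genes were less lowered against C57BL6 WT than Stmn4 and Ptk2b. Against C57BL6-BALB/c WT they were less lowered than Ptk2b, while 6 of them, Lrfn2, Scg2, Myt1l, Add2, Kcnv1 and Gabrb2, were more lowered than Stmn4. None lies on chromosome 14. The likeness rests on 3 libraries, of which Cx30-/- enters both ratios.

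The deleted gene itself served as a check of the labels. Gjb6 had 2531 normalized counts in C57BL6 WT vessels, 2426 in C57BL6-BALB/c WT and 100.7 in the Cx30-/- library, with log2 ratios of -4.65 and -4.59. The 96 reads left in the Cx30-/- library covered 79.6% of the transcript's bases. Their origin was not tested.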

How the data were processed

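Isolated brain vessels were measured in 3 RNA-seq libraries, 1 per group. Per the labels, CASAVA 1.8.2 and Bowtie were used. The authors aligned trimmed reads, removed those matching more than once, and deposited for each of 82813 transcripts the raw count of overlapping alignments, the transcript's length and its bases without a read. The deposited fraction of the library was not used. Deposited counts summed to 60725557 (C57BL6 WT), 53484865 (C57BL6-BALB/c WT) and 50375426 (Cx30-/-).

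Identifiers were matched to GENCODE M21 (GRCm38), which named 69375 transcripts (83.8%) and supplied coordinates and the Stmn4 sequence. The genome build behind the files' own positions was not settled, since only 1.6% of the named transcripts had the GRCm38 start. Each gene took its row with the largest total count. Normalization was by median-of-ratios size factors (1.1452, 0.9258 and 0.9532, in that order), with no pseudocount. A call needed at least 50 normalized counts in 1 of 2 libraries and 2-fold, and intervals were exact Clopper-Pearson (scipy 1.17.1). TMM factors came from edgeR 4.0.16. No p-value was computed, since each group had 1 library.

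The members, families and markers were chosen with earlier results of these data known. Named genes were the members, segment or family genes called in both comparisons, the 3 most counted segment genes, Gjb6 and the 5 genes most like Stmn4 and Ptk2b. The other relatives and flanking genes were named after their values were seen. Promoter and protein sequences of the members were not used here.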

Additional observations from a re-analysis of the deposited data

How the results depend on the processing

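Of 162 recomputed log2 ratios of the 9 genes, 153 stayed within the read-sampling interval of the reported value and 9 did not. The ratio of Ptk2b, Cx30-/- over C57BL6-BALB/c WT, was -2.34 when all rows of the gene were summed and -2.28 on its longest row, against -2.48 as reported. Between the WT libraries Ptk2b came under 2-fold with total-count scaling (0.97), summed rows (0.88) and the longest row (0.82). The ratio of Stmn4 between the WT libraries, at 0.01, changed sign with total-count scaling and with summed rows (-0.05 each). Across the library-wide scalings, row choices and pseudocount Stmn4 lay at -1.74 to -1.66 and -1.69 to -1.63, and Trim35 at -1.27 to -1.24 and -1.19 to -1.13. The members called lower in both comparisons numbered 5 at a 1.5-fold threshold, with Ephx2 and Adra1a added, and 4 without a count minimum, with Chrna2 added, against 3 under the other library-wide scalings, row choices, pseudocount and count minimum. Scaled to summed neuron markers, an alternative chosen after seeing the data, the number was 0, and scaled to oligodendrocyte markers 2. The segment genes called lower in both numbered 4 with summed rows, 1700001G11Rik being added. Within 5 Mb of Stmn4, 1 gene, Tnfrsf10b, was called higher in both comparisons, against 0 within 2 Mb. No library-wide scaling moved the median gene by more than 0.07. No paired analysis was possible because each group held 1 library. Reads limit Chrna2 and Adra1a most, and the difference between mice or preparations was not measured.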
